A study of Homo sapiens with 24 samples.

Results

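BRAT1 loss was examined in undifferentiated H7 cells, an established human embryonic stem cell line, by comparing the day 0 libraries of 2 BRAT1 knockout lines with those of 2 control lines. These 12 libraries of the 24 in the series were chosen by their labelled day and genotype: 6 from knockout lines (3 from line 1 and 3 from line 2) and 6 from control lines (3 from each). All 4 lines are H7 stem cells that had not been differentiated, and the other 12 libraries are the same lines after 14 days of ventral differentiation into neural progenitors. Poly(A) RNA was made into libraries by Click-Seq, which adds the sequencing adapter by click chemistry. How BRAT1 was disrupted is not given in the sources used here, nor whether each line is 1 clone or what was done to the control lines. The 3 libraries of a line are labelled biological replicates A, B and C. Nothing says that these came from separate thaws or cultures, so p-values measure the spread between these samples, which may be technical. They also count the 3 libraries of a line as separate samples, while a genotype is represented by 2 lines.

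BRAT1 is a protein that binds INTS11, the endonuclease of the Integrator complex, together with its partner INTS9. Integrator cleaves nascent RNA made by RNA polymerase II: it forms the 3' ends of small nuclear RNAs and ends transcription early at many protein-coding and enhancer loci. CPSF is the related complex that cleaves the 3' ends of ordinary mRNAs before polyadenylation. In humans, inherited loss of BRAT1 function causes neurological disease. The day 0 comparison asks whether RNA levels differ between the genotypes before differentiation begins.

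In the stem cell state no feature passed the test between knockout and control lines. Counts under INTS11, the Integrator nuclease that BRAT1 binds, were higher in both knockout lines than in both control lines within each replicate letter. This held for 32 of the 4832 features tested (0.662%), INTS11 among them, and 14 (0.29%) lay lower in the same way. The difference in INTS11 did not pass adjustment over all features. No marker of pluripotent stem cells passed the test, although the intervals of most were wide. Of the features that differ at day 14, fewer than 1 in 2 could be tested at day 0, and none of those passed there. In the main fit, which left out the replicate letters, the day 0 libraries could resolve only large changes for most features.

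The day 0 totals ran from 1407832 to 2143871 counts, and 9299 to 15116 features had at least 1 count. Drawn down to 1407832 counts, the day 0 libraries held 9057 to 14137 features and the day 14 libraries 19215 to 22554. No 2 libraries had identical values. At many loci the counts stand under the gene on the opposite strand. Among 1800 antisense and coding pairs that together had 100 or more counts at day 0, the antisense member had the larger count in 1261 (70.1%), and the ratio had a median of 7.84. TALAM1 lies opposite the abundant nuclear RNA MALAT1 and took 2.00% of day 0 counts, against 0.000852% for MALAT1. Counts are therefore given for the feature named. For the leading features a gene on the other strand is named where its exons or its gene span overlap. Other features may have one too. The strand setting of the counting is not given in the sources used here, so the name of a feature does not settle which of 2 overlapping genes its reads came from.

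The libraries of replicate letter A stood apart from the rest in all 4 lines. Mitochondrially encoded features took 15.2 to 18.8% of counts in the 4 A libraries, 5.89 to 7.32% in the B libraries and 4.19 to 6.98% in the C libraries. MIR302CHG, named for the host gene of the miR-302 cluster that marks human pluripotent cells and opposite LARP7, followed the letters too. Its level was 2881 to 3968 CPM (counts scaled to a common library total) in A, 10743 to 14665 CPM in B and 6714 to 7876 CPM in C. These ranges do not overlap, and each holds 2 control and 2 knockout libraries, so the letters are balanced over genotype. What distinguishes the letters is not given in the sources used here. Without the 4 A libraries the edgeR test again called 0 features, with 97 at unadjusted p under 0.05.

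**Figure D1:**
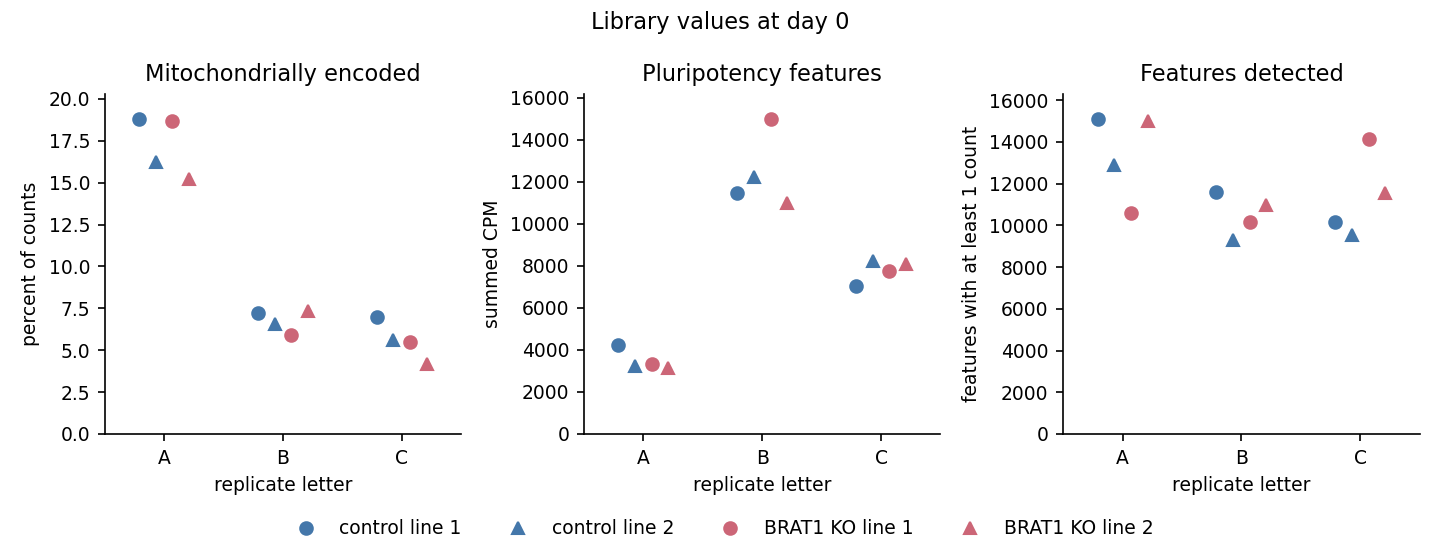
Library values at day 0 by replicate letter, for control lines (blue) and BRAT1 KO lines (red), line 1 as circles and line 2 as triangles; each point is 1 library. The y axes give the percent of counts in mitochondrially encoded features, the CPM summed over pluripotency features, and the number of features detected. The A libraries have the highest mitochondrial percent (15.2 to 18.8) and the lowest pluripotency sum (3127 to 4210 CPM) in both genotypes. Most of that sum is MIR302CHG, with means of 7446 of 7730 CPM in controls and 7762 of 8050 CPM in knockouts. MIR302CHG lies opposite LARP7, and its counts may hold reads of either gene. L1TD1 had 11.9 to 79.8 CPM in A, 59.0 to 83.2 CPM in B and 89.9 to 130 CPM in C. LRRC2, opposite TDGF1, had 442 to 688 CPM in A and 374 to 450 CPM in B.

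Mitochondrially encoded features took 10.2% ± 5.73 of counts in controls and 9.47% ± 5.99 in knockouts (SD, n = 6), and totals averaged 1703090 ± 264883 and 1798050 ± 283804 counts. The control libraries held 11436 ± 2259 detected features and the knockout libraries 12066 ± 2007 (SD, n = 6). None of 6 such values passed a two-sided exact permutation test, with an adjusted p of 0.937 for each. With labels permuted only within the letters (216 arrangements, a test added after seeing the data), none passed either, with an exact permutation adjusted p of 0.898 for each. The mitochondrial percent was lower in knockouts within every letter, by 0.558 percentage points in A, 0.276 in B and 1.46 in C (unadjusted exact permutation p = 0.278). In C both knockouts (5.47 and 4.19%) lay below both controls (6.98 and 5.61%).

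The targeted gene could not serve as a check of the labels at day 0. Counts under BRAT1 (ENSG00000106009, GRCh38 chromosome 7, 2537877 to 2555727) in replicates A, B and C were 6, 0 and 0 for control line 1, then 2, 0 and 0 for control line 2. Knockout line 1 had 0 in each replicate, and knockout line 2 had 8, 0 and 10. This is 8 of 10218530 counts in controls and 18 of 10788285 in knockouts, so 8 of 12 libraries were at 0 and the highest were in a knockout line. BRAT1 stood below the filter on low counts and was not tested. At day 14 the same lines had 252 ± 45.9 CPM in the control and 46.2 ± 38.0 CPM in the knockout libraries (SD, n = 6), which is the only check of genotype that these counts give. The knockout lines differed there: line 1 had 7.66 to 16.9 CPM and line 2 had 71.2 to 86.8 CPM, against 186 to 317 CPM in controls. Knockout line 2, which kept more BRAT1 counts at day 14, is also the line with the highest counts at day 0.

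The first test compared all 6 knockout with all 6 control libraries. Of 4832 features that passed the filter, 0 (0.0%) passed an adjusted p of 0.05 by edgeR's quasi-likelihood test. The smallest unadjusted p was 0.000886 and the smallest adjusted p 1.00. At unadjusted p under 0.05 there were 99 features (2.05%), 55 higher in knockouts (1.14%) and 44 lower (0.911%). This share is below the 0.05 that evenly spread p-values would give. DESeq2 also called 0, with 868 of 25266 features at unadjusted p under 0.05 (3.44%), and limma voom called 0, with 144. The median log2 fold change was -0.01.

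A p that misses the threshold does not show that levels were equal, and the intervals say how large a change remains possible. For 1133 features (23.4%) the 95% interval of the fold change lay within 2-fold in either direction, and for 3043 (63.0%) within 4-fold. The precision followed the level. With the features cut into 4 equal classes by mean CPM, 77.4% of the class above 96.05 CPM had an interval within 2-fold, against 16.4% of the class from 30.75 to 96.05 CPM and 0.0% of those below. The spread between replicates was wide at day 0, with a common biological coefficient of variation of 0.736 over 4832 features. It was 0.383 over 11408 features at day 14, and 0.309 over 8510 for day 14 libraries thinned to the day 0 totals. These fits cover different features, so the 3 values are not strictly alike. Over the 4548 features tested at both days, the median SE was 0.586 at day 0 and 0.213 at day 14 without thinning. Replicate letter was not in these fits, so differences between letters are part of the day 0 spread and of the intervals. With the letter as a block, edgeR again called 0 features, with 169 at unadjusted p under 0.05.

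**Figure D2:**
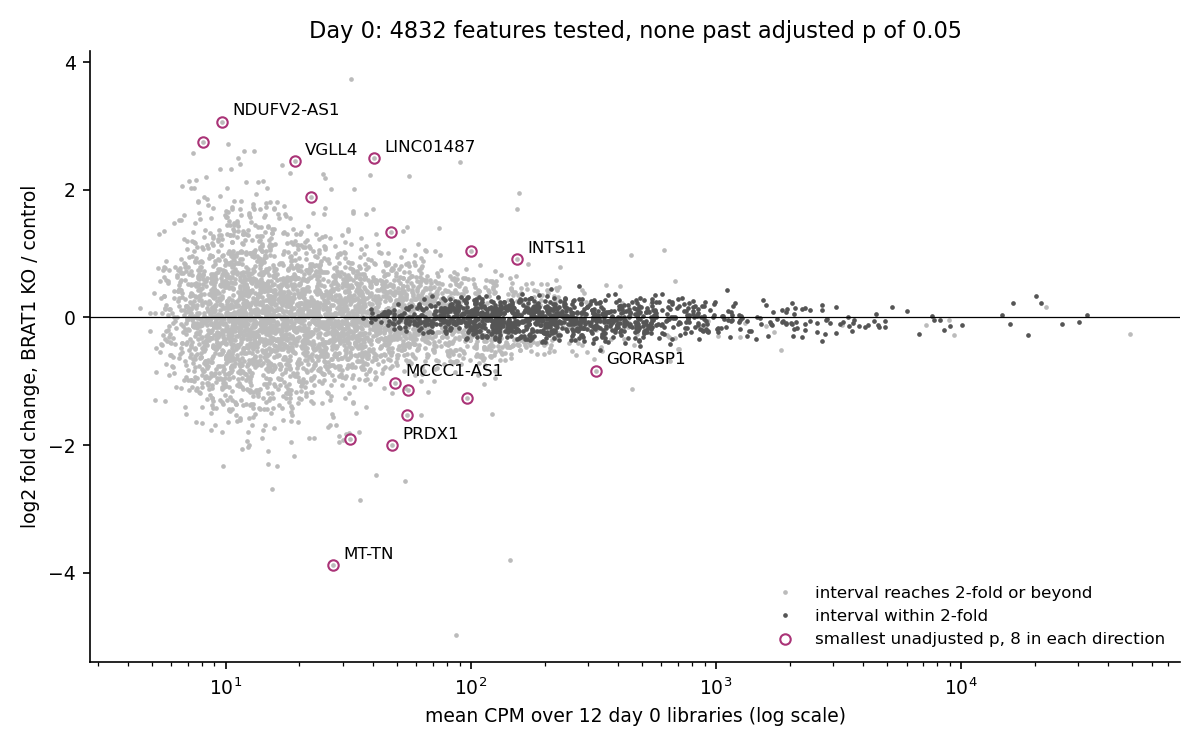
Log2 fold change of BRAT1 KO over control for the 4832 features tested at day 0 (y axis) against mean CPM over the 12 libraries (x axis, log scale). Dark points are the 1133 features whose 95% interval lies within 2-fold, grey points the others, and rings mark the 16 named features with the smallest unadjusted p. Large estimates lie among features of low CPM, and the features of high CPM lie close to 0.

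Integrator genes were described first because BRAT1 acts through this complex. INTS11 (ENSG00000127054, chromosome 1, 1311585 to 1324691), the nuclease subunit, had 86.4, 81.0 and 131 CPM in replicates A, B and C of control line 1 and 101, 90.8 and 146 CPM in control line 2. In knockout line 1 it had 286, 124 and 208 CPM, and in knockout line 2 216, 109 and 281 CPM. Within each letter both knockout libraries lay above both control libraries, though the pooled ranges overlap, since the B knockouts (109 and 124 CPM) lie below the C controls (131 and 146 CPM). Mean levels were 106 ± 26.4 CPM in the control and 204 ± 75.3 CPM in the knockout libraries (SD, n = 6), for a log2 fold change of 0.91 (SE 0.29, 95% interval 0.30 to 1.53, unadjusted p = 0.00537, edgeR adjusted p = 1.00). Among the 4832 features tested, 32 (0.662%) lay higher in this way within every letter and 14 (0.29%) lower. The estimate was close to this in each knockout line, at 0.94 for line 1 and 0.89 for line 2 against both control lines. Without the A libraries it was 0.66 with an unadjusted p of 0.0942. With all 24 libraries in 1 fit INTS11 passed, with a log2 fold change of 0.94 and an adjusted p of 0.0459. Over 30 alternatives the lowest adjusted p of INTS11 was 0.0459 and the highest 1.00. At day 14 the log2 fold change of INTS11 was 0.42 (SE 0.15, edgeR adjusted p = 0.0449), and the difference between the days did not pass (interaction adjusted p = 0.484). The gene span of INTS11 overlaps that of PUSL1 on the other strand, and the counts may hold reads of either gene.

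No other Integrator gene or partner of BRAT1 had an unadjusted p under 0.05. Of 21 genes in this list 5 were tested under their own names, and 0 passed in either direction (background 0.0%), with a median log2 fold change of 0.31. INTS8, a subunit of the Integrator module that recruits a phosphatase, lies opposite the cyclin gene CCNE2 and had 101 ± 99.8 CPM in the control and 63.7 ± 39.4 CPM in the knockout libraries (SD, n = 6). Its libraries of letter C were the highest in every line (210, 245, 73.2 and 131 CPM), and the groups overlap. INTS12, a small subunit with a PHD finger whose gene span overlaps GSTCD and NPNT, had 50.2 ± 26.1 and 43.9 ± 14.9 CPM (SD, n = 6). WDR73, a protein that binds BRAT1's partners INTS9 and INTS11, had 26.9 ± 11.7 and 34.6 ± 16.2 CPM (SD, n = 6). INTS3 was the fifth, at 13.6 ± 20.9 and 18.0 ± 13.6 CPM. Features opposite an Integrator gene numbered 5, with 0 past the threshold and a median of -0.10. INTS9 and 15 others of the list were not tested under their own names.

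Processed RNAs that lack a poly(A) tail gave little to measure here. Small nuclear RNAs end without a poly(A) tail, as do the mRNAs of replication-dependent histones, and the libraries were poly(A) selected. Of 17 genes of small nuclear RNAs 0 were tested, and their summed level was 0.0 CPM in the control and 0.187 ± 0.457 CPM in the knockout libraries (SD, n = 6). Of 33 replication-dependent histone genes listed, 12 were matched in the files and 0 tested. Their summed level was 3.96 ± 4.83 CPM in control and 13.4 ± 12.9 CPM in knockout libraries (SD, n = 6), a difference that was not tested. Among 22 cleavage and polyadenylation factors 4 were tested under their own names and 5 through a feature opposite, with medians of 0.02 and 0.24. WDR33, which recognises the polyadenylation signal and lies opposite SFT2D3, had 230 ± 59.6 CPM in the control and 199 ± 65.4 CPM in the knockout libraries (SD, n = 6), for a log2 fold change of -0.24 (95% interval -0.81 to 0.32).

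Beyond INTS11, 7 named features with the smallest unadjusted p were higher in knockouts. LINC01487, a long intergenic RNA (chromosome 3, 155240945 to 155243144), had 16.0, 26.3 and 1.72 CPM in control line 1, 23.6, 1.24 and 2.77 CPM in control line 2, 191, 66.5 and 72.3 CPM in knockout line 1 and 26.6, 45.3 and 8.21 CPM in knockout line 2. Its highest values were in knockout line 1, and the groups overlap; the log2 fold change was 2.49 (SE 0.77, unadjusted p = 0.0042, edgeR adjusted p = 1.00). NDUFV2-AS1, opposite ANKRD12, ran from 0.0 to 6.39 CPM in controls and from 9.80 to 39.3 CPM in knockouts. HMX3, a homeobox transcription factor gene, ran from 2.77 to 12.3 CPM in controls and from 14.9 to 80.1 CPM in knockouts. In these 2 features the groups do not overlap, as in 10 of the 4832 tested (0.207%), 6 of them higher in knockouts (0.124%) and 4 lower (0.0828%). VGLL4, named for a TEAD cofactor and opposite the autophagy gene ATG7, had a median of 5.14 CPM in the control and 19.1 CPM in the knockout libraries, and the highest values, 72.3 and 60.8 CPM, were in replicates A and B of knockout line 1. IDI2 lies opposite the ribosome assembly gene GTPBP4 and had medians of 20.7 and 64.4 CPM, with overlap. ANKRD42-DT is a divergent transcript whose gene span overlaps ANKRD42 and the 3' end processing gene PCF11 on the other strand. It had 65.3 ± 38.4 CPM in control and 136 ± 56.0 CPM in knockout libraries (SD, n = 6, log2 fold change 1.05). ERCC6L2, a gene of DNA repair opposite LINC00476, completes the 8 on this side, with a log2 fold change of 2.74.

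On the lower side GORASP1 had the highest CPM. GORASP1 (chromosome 3, 39096659 to 39108363), named for a Golgi stacking protein and opposite TTC21A, had 290, 472 and 464 CPM in control line 1 and 485, 517 and 238 CPM in control line 2. It had 155, 218 and 260 CPM in knockout line 1 and 354, 217 and 220 CPM in knockout line 2. The knockout libraries were the lower ones on average, but control line 2 replicate C and control line 1 replicate A lay within their range. The log2 fold change was -0.83 (SE 0.25, 95% interval -1.35 to -0.31, unadjusted p = 0.00309, edgeR adjusted p = 1.00). MCCC1-AS1, antisense to the gene of a leucine catabolism enzyme, ran from 47.6 to 82.4 CPM in controls and from 14.5 to 44.2 CPM in knockouts, with no overlap. CREB3, the gene of a transcription factor held in the endoplasmic reticulum membrane, overlaps GBA2 and TLN1 and ran from 32.0 to 120 CPM in controls and from 9.75 to 51.5 CPM in knockouts, with overlap. PRDX1, a peroxiredoxin gene opposite MMACHC, had medians of 74.2 and 20.05 CPM. TMEM223, a gene of cytochrome c oxidase assembly that overlaps TAF6L and TMEM179B, had medians of 110 and 55.5 CPM. ZNF747, a zinc finger gene opposite AC002310.1, had medians of 44.7 and 13.2 CPM. URAHP, a pseudogene opposite GAS8, had medians of 58.9 and 22.4 CPM. MT-TN, a mitochondrial tRNA gene, reached 87.4 and 200 CPM in the A libraries of the controls and at most 13.2 CPM elsewhere, so its difference rests on 2 libraries of the letter that stands apart. Of the 8, URAHP was also lower at day 14 (log2 fold change -2.31, edgeR adjusted p = 0.011).

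The smallest p of all belonged to a feature outside the naming rule, picked here after its value was seen. ENSG00000272173 (chromosome 12, 6943508 to 6944604), an antisense feature with no symbol opposite C12orf57 (itself at 43.9 ± 23.5 CPM in control and 19.9 ± 11.2 CPM in knockout libraries), had 304, 548 and 732 CPM in control line 1 and 373, 796 and 962 CPM in control line 2. In knockout line 1 it had 350, 330 and 396 CPM and in knockout line 2 205, 292 and 174 CPM. The B and C controls lay above every knockout library, and the A controls lay among them. The log2 fold change was -1.13 (SE 0.29, unadjusted p = 0.000886, edgeR adjusted p = 1.00). It was -1.39 without the A libraries (adjusted p = 0.361), and it passed with no filter on low counts (adjusted p = 0.0271) and with all 24 libraries in 1 fit (adjusted p = 0.0195).

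**Figure D3:**
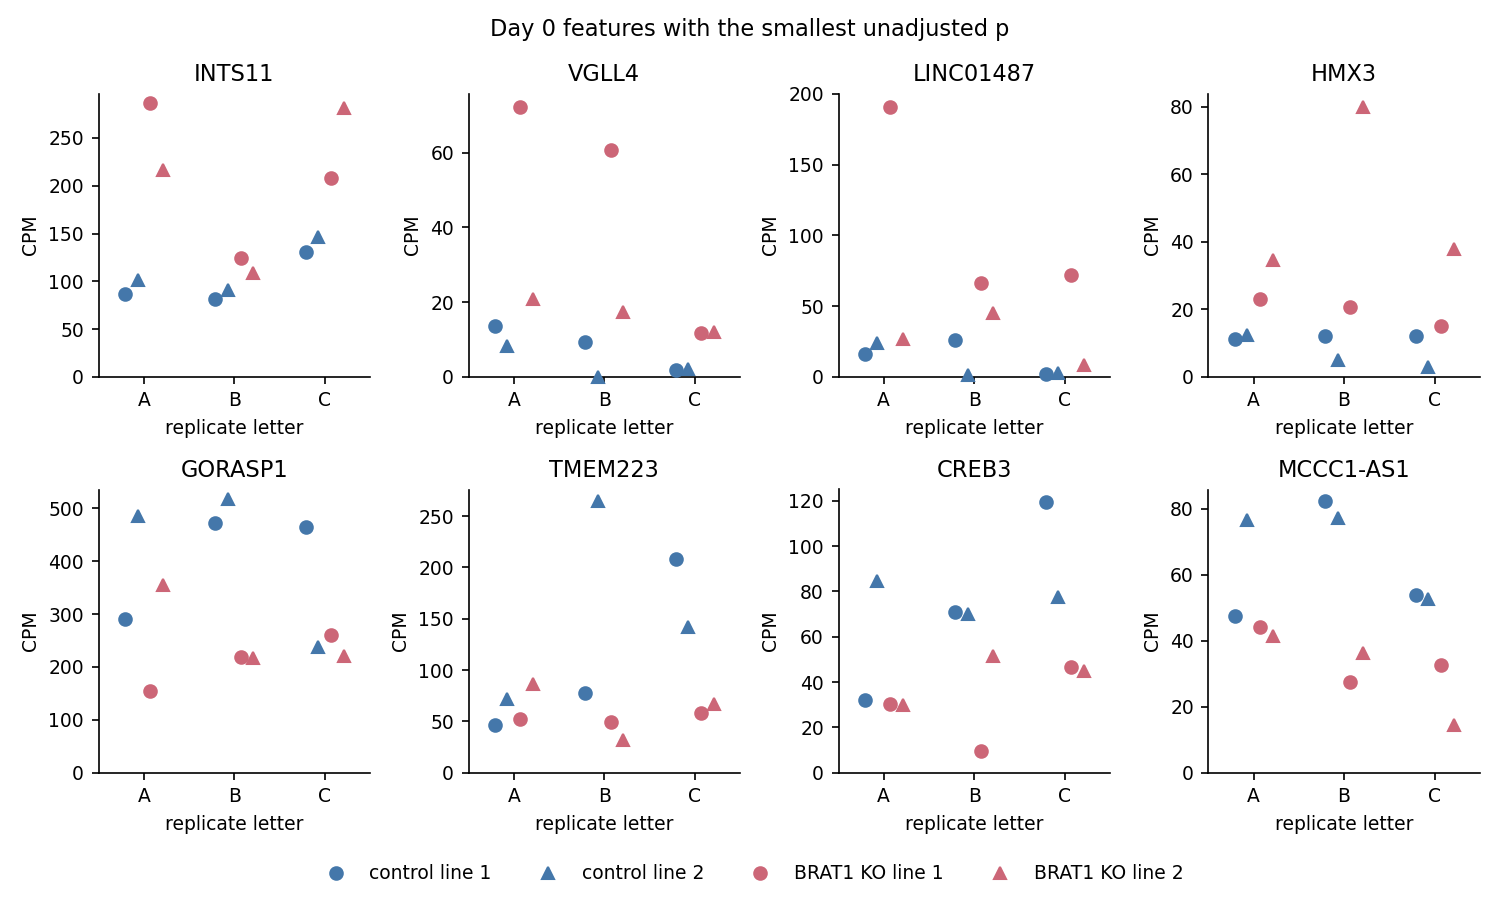
CPM (y axis, from 0) in each of the 12 day 0 libraries by replicate letter, for 4 features higher and 4 lower in BRAT1 KO among those with the smallest unadjusted p. Blue is control, red is BRAT1 KO, circles are line 1 and triangles line 2. In INTS11 both red points lie above both blue points within each letter, and in HMX3 and MCCC1-AS1 the colours do not overlap at all.

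Pluripotency markers were used to ask whether the genotypes differed in the stem cell state. Whether the lines were stem cells was not itself tested. Of 32 genes 11 were tested under their own names and 5 through a feature opposite, and 0 passed in either direction. The median log2 fold changes were 0.02 and -0.06, beside -0.01 for all features tested, but estimates under own names ran from -2.03 to 1.18. The interval lay within 2-fold for 2 of the 11 and 3 of the 5. In bulk libraries, fewer cells of a type and less RNA per cell cannot be told apart. MIR302CHG, opposite LARP7, had 7446 ± 3666 CPM in the control and 7762 ± 4501 CPM in the knockout libraries (SD, n = 6), for a log2 fold change of 0.02 (95% interval -0.85 to 0.89). Its spread is that of the letters. LARP7 had 10146.5 ± 6977 and 8666 ± 5853 CPM (log2 fold change -0.27, 95% interval -1.60 to 1.06). Which of these 2 genes the reads under MIR302CHG came from is not settled. In day 14 controls MIR302CHG still had 2666 ± 516 CPM, against 0.534 ± 0.340 CPM for L1TD1 (SD, n = 6). LRRC2, which lies opposite TDGF1, the gene of a Nodal co-receptor of stem cells, had 442, 441 and 596 CPM in control line 1, 688, 450 and 522 CPM in control line 2, 626, 387 and 645 CPM in knockout line 1 and 585, 374 and 460 CPM in knockout line 2. These ranges lie over each other, and the log2 fold change was -0.06 (SE 0.21, 95% interval -0.49 to 0.37). TCF19, which overlaps the exons of the master pluripotency factor POU5F1 on the other strand, had 115 ± 36.8 and 120 ± 47.0 CPM, and POU5F1 itself had 37.3 ± 22.3 and 36.7 ± 26.7 CPM (SD, n = 6). L1TD1, an RNA-binding protein gene of stem cells, had 71.8 ± 18.9 and 80.0 ± 38.8 CPM. The feature opposite CDH1, the E-cadherin gene, had 649 ± 218 and 558 ± 151 CPM (ENSG00000260798, log2 fold change -0.25, 95% interval -0.77 to 0.28).

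The members farthest from 0 were 2 of low counts. JADE1, a subunit gene of a histone acetyltransferase complex, had 19.8 ± 28.9 CPM in the control and 4.95 ± 4.11 CPM in the knockout libraries (SD, n = 6, log2 fold change -2.03, unadjusted p = 0.0506). TDGF1 under its own name had 4.39 ± 3.30 and 10.4 ± 4.65 CPM (log2 fold change 1.18, unadjusted p = 0.163). Of the 5 defining markers, POU5F1, LIN28A and DNMT3B were tested, and SOX2 (63 counts in controls and 66 in knockouts) and NANOG (31 and 2) were below the filter. NANOG is the factor that gives the pluripotent state its stability, and at such counts a difference between genotypes was not detectable by this test.

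**Figure D4:**
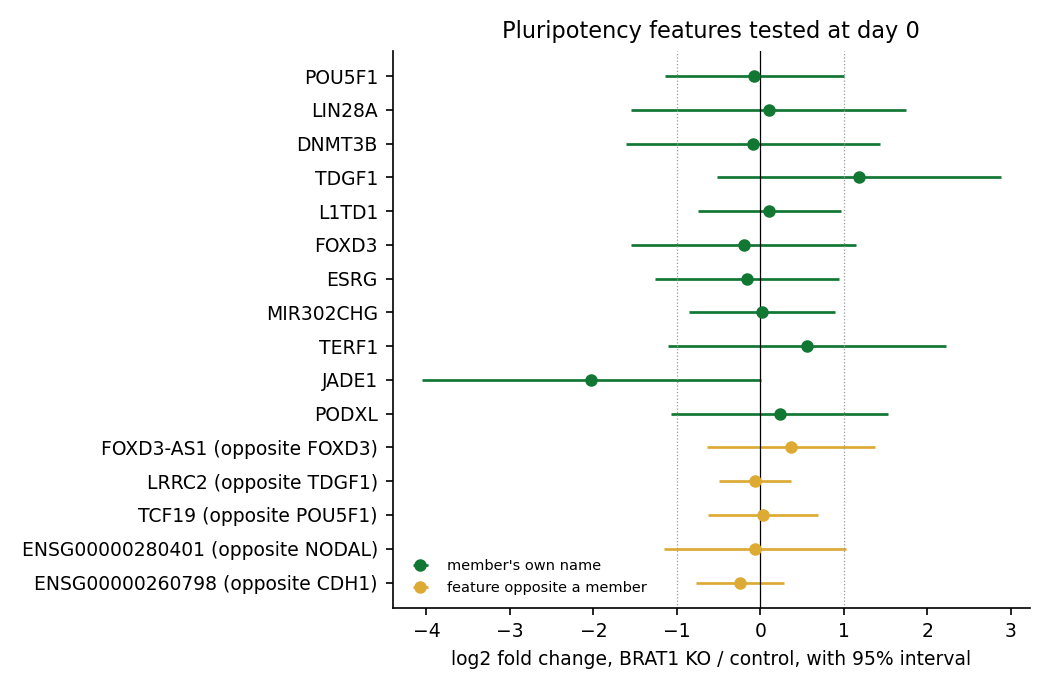
Log2 fold change of BRAT1 KO over control with its 95% interval (x axis) for the 16 pluripotency features tested at day 0. Green marks 11 features under the member's own name and yellow 5 features opposite a member; dotted lines mark 2-fold in each direction. Every interval crosses 0, that of JADE1 only just (-4.06 to 0.01).

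Markers of other cell types were few. The mesendoderm, naive pluripotency, and endothelium and blood lists had 0 tested members, and the mesendoderm sum was 1.76 ± 1.81 CPM in controls (SD, n = 6). NES, an intermediate filament gene of neural progenitors, had 39.1 ± 25.4 CPM in the control and 23.9 ± 16.5 CPM in the knockout libraries (SD, n = 6), for a log2 fold change of -0.74 (95% interval -1.99 to 0.50). PAX6, a neural fate factor gene, had 6.98 ± 5.71 and 7.38 ± 2.65 CPM. THY1-AS1, opposite the surface marker gene THY1, had 1864 ± 385 and 2217 ± 331 CPM, a log2 fold change of 0.22 (95% interval -0.17 to 0.62). Over all these markers no feature passed the test in either direction.

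Stress, damage and metabolic genes gave the same count. Over the 26 lists, 154 distinct features were tested, 0 passed and 3 (1.95%) had an unadjusted p under 0.05, beside 2.05% of all features. These were INTS11, RPA1 and SLC4A5. RPA1, a subunit gene of the protein that coats single-stranded DNA, had 6.02 ± 5.57 CPM in the control and 19.98 ± 7.20 CPM in the knockout libraries (SD, n = 6, log2 fold change 1.70, unadjusted p = 0.0409). It was the largest of 12 DNA repair genes tested, whose median was 0.31. SLC4A5, opposite the mitochondrial folate gene MTHFD2, had medians of 46.1 CPM in the control and 76.0 CPM in the knockout libraries, with 215 CPM in replicate A of knockout line 1 (log2 fold change 0.98, unadjusted p = 0.0348). The other feature opposite MTHFD2, ENSG00000264324, had 451 ± 111 and 524 ± 137 CPM, a log2 fold change of 0.18.

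Among p53 targets 1 was tested by name and 3 through a feature opposite, with a median of 0.23 for the latter. ENSG00000257181, opposite the p53 inhibitor gene MDM2, had 96.5 ± 56.0 CPM in the control and 113 ± 87.2 CPM in the knockout libraries (SD, n = 6). Of 25 cell cycle genes 9 were tested by name, with a median of -0.000836. CCNA2, the cyclin A gene, had 1045 ± 502 and 1102 ± 588 CPM and followed the letters, with 217 to 565 CPM in A, 1333 to 1839 CPM in B and 809 to 1434 CPM in C. Among immediate early genes, the feature opposite IER2 (ENSG00000267598) had 939 ± 159 and 1291 ± 377 CPM, a log2 fold change of 0.43 (95% interval -0.02 to 0.88, unadjusted p = 0.0592). The feature opposite GAPDH (ENSG00000269968), the glycolytic enzyme gene, had 16285 ± 3126 and 15462 ± 1749 CPM, a log2 fold change of -0.10 (95% interval -0.48 to 0.28).

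Of 15 mitochondrially encoded genes 14 were tested and 0 passed, with a median log2 fold change of -0.24 and 12 estimates below 0. These genes share 1 chromosome and follow the letters together, so they do not count as 14 separate results. MT-ND6 had 53254 ± 33134 CPM in the control and 44922 ± 26123 CPM in the knockout libraries (SD, n = 6), with 62774 to 100982 CPM in the A libraries and 26566 to 35473 CPM in C.

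The lines of 1 genotype served as the background for the difference between genotypes. Knockout line 1 against both control lines had 0 features past the threshold by edgeR and 133 (2.75%) at unadjusted p under 0.05, and knockout line 2 had 0 and 81 (1.68%). Control line 2 against control line 1 had 0 and 119 (2.46%), and knockout line 2 against knockout line 1 had 0 and 87 (1.80%). So the 99 features (2.05%) of the genotype comparison stand within the range of the comparisons between lines of 1 genotype, which however set 3 libraries against 3. DESeq2 called 4, 2, 13 and 2 features in these contrasts, in the order given.

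Some features differed widely between control lines. ADI1, the gene of a methionine salvage enzyme, had 6.31, 4.97 and 2.29 CPM in control line 1, 19.5, 762 and 219 CPM in control line 2, and from 0.0 to 20.1 CPM in the knockout libraries. The log2 fold change between genotypes was -4.97, with the highest values in replicates B and C of control line 2. TFIP11, named for a splicing factor and opposite SRRD, was higher in control line 2 than in line 1 (log2 fold change 2.46, unadjusted p = 0.000427) and had 1129 CPM in replicate C of control line 2. AKNAD1 was lower in knockout line 1 than in knockout line 2 (0.0 to 1.15 CPM against 12.0 to 42.0 CPM), and in the controls it ran from 3.46 to 355 CPM. PIGK, a gene of GPI anchor attachment, reached 327 CPM in replicate C of knockout line 1 and at most 53.5 CPM in the other libraries.

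The last comparison asked whether features that differ in day 14 progenitors already differed in the stem cells. At day 14 the same test called 2474 of 11408 features (21.7%), and with libraries thinned to the day 0 totals it called 2082 of 8510 (24.5%). Restricted to the 4832 features tested at day 0, it called 1180 (24.4%). Thus with equal totals and equal group sizes the day 14 libraries gave calls where the day 0 libraries gave 0. The spread between replicates was also smaller at day 14, and its part in the number of calls was not tested. Of the 2474 features 1173 (47.4%) were measurable at day 0. They had the same direction at day 0 in 634 cases (54.0%), and 19 (1.62%) had an unadjusted p under 0.05, beside 2.05% of all features. Of 362 that changed at least 2-fold at day 14, the day 0 interval excluded the day 14 estimate in 204 (56.4%) and lay within 2-fold in 61. Their median size at day 14 was 1.37 on the log2 scale, and their median at day 0 in the same direction was 0.06. These features were chosen by their day 14 estimates, which favours larger values at day 14. The error of the day 14 estimates was not counted in this comparison. The days share lines but no libraries.

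The interaction of genotype and day passed for 161 of 10971 features (1.47%), 67 of them among the 1173. The interaction holds the day 14 difference that chose the 1173, so a larger share among them is built in. Its fit also pools the spread of both days, with a common biological coefficient of variation of 0.710. FOXD3-AS1, opposite the neural crest and stem cell factor gene FOXD3, had 51.5, 44.0 and 94.9 CPM in control line 1, 58.0, 44.8 and 186 CPM in control line 2, 138, 9.75 and 107 CPM in knockout line 1 and 149, 122 and 111 CPM in knockout line 2 at day 0. The groups overlap, with a log2 fold change of 0.37 (SE 0.48), while at day 14 it was -5.72 (SE 0.48), and the interaction passed (edgeR adjusted p = 2.81e-05). PHLDA1-AS1, opposite PHLDA1, had 754 ± 129 and 860 ± 364 CPM at day 0 (log2 fold change 0.17, 95% interval -0.36 to 0.70) and a log2 fold change of -2.97 at day 14 (interaction adjusted p = 5.24e-08). ENSG00000274021, opposite the ERK phosphatase gene DUSP6, had -0.07 at day 0 and -2.83 at day 14, and ENSG00000260798, opposite CDH1, had -0.25 and -5.34.

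FEZF1-AS1, opposite the forebrain factor gene FEZF1, showed the letters again. At day 0 it had 38.6 to 121 CPM in the 4 B libraries, 0.0 to 17.6 CPM in A and 2.86 to 7.60 CPM in C. The log2 fold change was -0.73 (SE 1.14) at day 0 and 4.53 at day 14, and the interaction passed narrowly (adjusted p = 0.0429). Forebrain genes among the largest day 14 rises were not detected in the stem cells. Counts under DLX2, DLX5, FEZF2 and NKX2-1 were 0 in all 12 day 0 libraries, as were those under SGCA and SALRNA1, which fell at day 14. With 21006815 day 0 counts, 0 counts allow a level of up to 0.143 CPM (3 counts over the 12 libraries, counting error only). DLX1 had 53 counts in replicate B of knockout line 1 and 0 in the other 11 libraries. BHLHE40-AS1, which fell at day 14, was below the day 0 filter, with 118 counts in controls and 40 in knockouts. Its controls had a median of 9.54 CPM and a highest value of 24.6 CPM, and its knockouts had 0.0 and 14.9 CPM, with overlap. LINC01124, which also fell at day 14, had 14 counts in 1 control library and 0 elsewhere. For these 3 features the day 0 counts lean the way of day 14, and the difference was not tested. Others of the largest day 14 changes, also below the day 0 filter, lean the opposite way. CAPN6 (98 counts in controls and 1 in knockouts) and LINC00461 (54 and 5) rose at day 14. LINC01257 (7 and 24) and ETV5-AS1 (8 and 57) fell there.

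**Figure D5:**
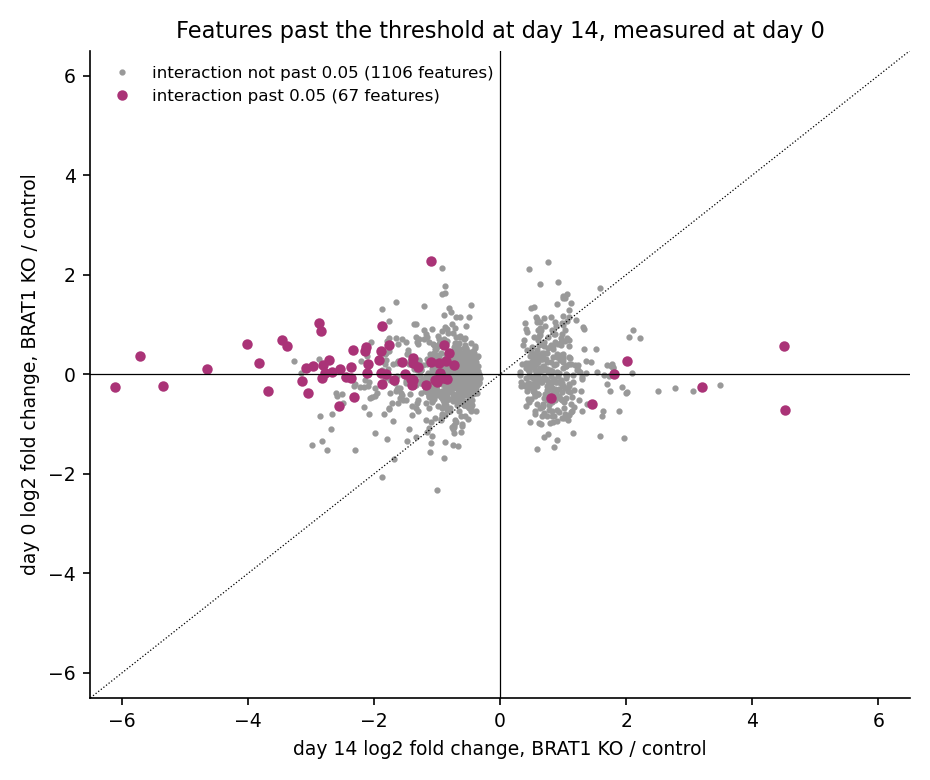
Log2 fold change of BRAT1 KO over control at day 0 (y axis) against that at day 14 (x axis) for the 1173 features past the threshold at day 14 and tested at day 0. Each point is 1 feature; purple points are the 67 whose interaction of genotype and day passed, and the dotted line marks equal changes. The points spread along the horizontal line at 0, and few of the features with large day 14 changes lie near the dotted line.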

How the data were processed

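The deposited values are raw read counts per gene, 1 table for each library, made by the authors with STAR 2.7.9a, featureCounts (Subread 2.0.1) and GRCh38, per the submitters' processing notes. Neither annotation release nor strand setting is given in the sources used here. Features were matched by name to GENCODE 29 (56955 of 61248). A gene opposite needed at least 100 bp of exon overlap and 90% of it from 1 gene.

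Knockout was compared with control with edgeR 4.0.16 under R 4.3.3: TMM scaling, filterByExpr, robust quasi-likelihood F test, Benjamini-Hochberg adjusted p under 0.05. CPM divide by the library total. Intervals are 95%. Line contrasts used 1 fit of 4 line groups, the interaction 1 fit of 24 libraries, and thinning drew counts at random. The edgeR genotype test was run on simulated counts, which had no effect of letter or line, unlike these data.

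Alternatives were DESeq2 1.42.0, limma 3.58.1 voom, RLE, other filters, blocks and left-out libraries; those without A libraries, with 4 line groups and the block together, or permuting within letters were chosen after seeing the data. Named were the 8 features in each direction with the smallest p, mean CPM of at least 5, a symbol and the same direction in all 4 line pairings, 3 per list by CPM, 3 in each direction per line contrast, and the largest day 14 changes; others are said to be chosen after their values were seen. RPA1, JADE1, TDGF1, INTS3, WDR73 and C12orf57 were so chosen. Members and lists were chosen with earlier results of these data known.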

Additional observations from a re-analysis of the deposited data

Results flagged for a closer look

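In 44 groups of 6 libraries looked at (6 library values and 16 named features, in each genotype), 5 had 1 library far from the other 5, and chance gives about 1 in 20. LINC01487 reached 191 CPM and NDUFV2-AS1 39.3 CPM in replicate A of knockout line 1. NDUFV2-AS1 reached 6.39 CPM in replicate B of control line 1. HMX3 reached 80.1 CPM in replicate B of knockout line 2, and URAHP 58.5 CPM in replicate B of knockout line 1.

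For 19 of 130 named features the knockout effect differed between the days by the interaction test in edgeR, against 161 of 10971 features in all (1.47%). The named features include those chosen for the largest day 14 changes, which favours such a difference. The value is the day 0 log2 fold change minus that of day 14. Features opposite genes of ERK feedback and immediate early response had 3.12 for PHLDA1-AS1, 2.77 for ENSG00000274021 (opposite DUSP6), 3.25 for DUSP6 itself, 1.25 for ENSG00000267598 (opposite IER2) and 2.17 for NR4A1AS (opposite NR4A1). Features opposite metabolic genes had 2.98 for ENSG00000264324 and 2.82 for SLC4A5 (both opposite MTHFD2), 2.25 for ENSG00000276727 (opposite SHMT2), 0.74 for ENSG00000269968 (opposite GAPDH) and 2.61 for ENSG00000265168 (opposite ALDOC). Features opposite marker genes had 5.02 for ENSG00000260798 (CDH1), -5.25 for FEZF1-AS1 (FEZF1), 6.13 for FOXD3-AS1 (FOXD3), 1.18 for THY1-AS1 (THY1) and 2.69 for ACTA2-AS1 (ACTA2). In each of these the day 0 estimate did not pass its own test.

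The other 4 were below the filter at day 0, where their values rest on 1 library. CAPN6 had -10.8, with 93 of its day 0 counts in replicate B of control line 2, and LINC00461 had -7.75, with 52 counts in the same library. LINC01257 had 7.97, with 23 counts in replicate C of knockout line 2, and ETV5-AS1 had 7.67, with 54 counts in replicate A of knockout line 1.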

How the results depend on the processing

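The count of 0 features between genotypes was the same under 26 of 30 alternatives, among them DESeq2, the replicate block (0, with 169 at unadjusted p under 0.05), every left-out library (0 to 0) and the fit without the A libraries. It was 13 with no filter on low counts, 1 with counts summed per line (ZNF385D), 116 with all 24 libraries in 1 fit and 1 without control line 1 (NOP9, below the day 0 filter). Of the 116, 7 passed the day 0 filter, and their median level was 3.08 CPM. The day 14 count at day 0 totals moved to 1180 over the day 0 features. Knockout line 1 against controls had 4 features with DESeq2 and 4 with no filter, and knockout line 2 had 2 and 9. Control line 2 against line 1 had 13 and 9, and knockout line 2 against line 1 had 2 and 4; the cause was not tested. With the replicate block the last contrast called 1 feature (GNAS-AS1), and the interaction of genotype and day 125.

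For the 17 features with the smallest p, 500 of 504 values kept direction and side of the threshold and 4 passed it, as INTS11, ERCC6L2 and ENSG00000272173 did with all 24 libraries. Of 3005 values of 101 other named features, 1 passed (ADI1, 24 libraries) and 101 moved by more than their SE. The library values kept their side under all 38 alternatives.

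The letters are a hint of pairing at day 0, not part of the design: 14 of 18 same-letter correlations of deviations exceeded 0.1 (range 0.085 to 0.296), and 12 of 12 libraries correlated best with their own letter. Of the features tested, 26.1% were at 0 in at least 1 library, as were 12 of 1815 at 50 CPM or more.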
